A study of Homo sapiens with 10 samples.

Results

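Ribosome biogenesis factors of the nucleolus made up a list of 42 genes that share a known function, chosen with earlier results of these data known. Of these, 41 have a row among the 36498 genes of the deposited table. PWP2 was not analysed here. The genes were matched by symbol. Their transcripts were compared in AsPC-1, an established cell line from a human pancreatic ductal adenocarcinoma, kept for 24 h either in complete RPMI medium (control, 5 libraries) or in RPMI without glutamine, to which 10% dialysed serum was added (starved, 5 libraries). The cells were otherwise grown in RPMI with 10% fetal bovine serum, sodium pyruvate and antibiotics, so the groups as labelled also differ in dialysis of the serum, and the labels name neither an agent nor a genetic change. All libraries come from 1 cell line, and nothing in the labels says whether replicates are separate cultures, so p-values measure only the spread between these libraries, which may be technical. Each library read the 3' ends of transcripts from total RNA of a whole culture, so fewer cells of one kind and less RNA per cell cannot be told apart.

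Recovered counts ran from 141763 to 474619 per control library (median 395645) and from 164008 to 593248 per starved library (median 201642), and 1 count was worth 1.69 to 7.05 CPM, counts per 1000000 of a library. Starved replicate 1 was the deepest and control replicate 1 the shallowest. In starved libraries mitochondrial mRNA took a smaller share (5.20% ± 0.319 in control, 3.38% ± 0.199 in starved libraries) and so did cytosolic ribosomal protein mRNA (5.17% ± 0.323 and 4.32% ± 0.239), both without overlap (adjusted exact permutation p = 0.0198 each, over 5 measures). The 50 highest genes took 20.8% ± 1.17 and 22.9% ± 1.05 (adjusted exact permutation p = 0.0265). Epithelial markers summed to 12339 to 13414 CPM in control and 2683 to 2961 CPM in starved libraries, and of 8 tested genes 5 fell, KRT8, KRT18 and KRT19 among them, and 0 rose. Acinar markers summed to at most 5.31 CPM in any library, and PRSS1, PRSS2, CPA1, CELA3A, CTRB1 and AMY2A were at 0. Of fibroblast markers COL3A1, DCN and PDGFRA were at 0 and the sum was 84.6 to 157 CPM in control and 26.5 to 36.6 CPM in starved libraries, where LUM, the 1 tested gene, fell; leukocyte markers, of which LYZ fell and CD68 rose, summed to 96.9 to 141 CPM in control and 74.4 to 122 CPM in starved libraries. Endothelial markers summed to at most 4.97 CPM in control and 36.6 CPM in starved libraries, with CDH5, CLDN5 and TEK at 0. The part of these shares and markers in the results below was not tested.

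Ribosomes are built in the nucleolus. RNA polymerase I transcribes a long precursor of the ribosomal RNAs there; small nucleolar RNA-protein particles of the box C/D and box H/ACA classes guide its methylation and pseudouridylation; and large assemblies then fold and cut it into the small and the large subunit. The process takes a large part of a growing cell's energy and nucleotides. Its genes are textbook targets of MYC, and its rate falls when cells lack amino acids, mostly through control of polymerase I.

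After glutamine starvation these genes did not move one way: transcripts of some factors fell up to 4.11-fold and those of others rose up to 2.33-fold, and opposite changes occurred within the same particle. Of 41 genes 39 had a mean of at least 5 CPM and were tested. At a limma adjusted p under 0.05 (log2(CPM + 1), Benjamini-Hochberg over all tested genes) 9 rose and 11 fell, and 19 were not called. That is 51.3% called, beside 43.3% of all 11202 tested genes; 23.1% were higher, beside 17.2% of all, and 28.2% were lower, beside 26.1% of all. These shares are near the background. Counts by role below, for these factors and for other pathway genes, are to be read beside these shares of all genes. Several roles hold few genes, and no trend of a role is read from its count. Called members that fell did so by log2 changes of -0.53 to -2.0, and those that rose by 0.30 to 1.12. The median log2 change of the 39 was -0.10, beside -0.22 for all tested genes, and was 0.01 with edgeR, where the median of all genes was -0.09. Quantile normalization moved the median of all genes by the most, to -0.02, and no called member changed sign under any scaling tried. In 11 of the 39 (28.2%) the 5 control and the 5 starved libraries did not overlap, 8 lower and 3 higher, beside 30.4% of all tested genes (12.5% higher and 17.9% lower). Together the 41 transcripts made up 0.687% ± 0.0312 of control and 0.638% ± 0.0358 of starved libraries (mean ± SD, n = 5 each). The ranges overlapped (0.661 to 0.735% and 0.589 to 0.679%). Abundant members within this sum went both ways. NPM1 went from 1338 to 857 CPM and NCL from 683 to 271 CPM, but NOP10 from 502 to 904 CPM and DDX21 from 417 to 846 CPM. The 124 other ribosome biogenesis genes described below made up 1.04% ± 0.0422 and 1.13% ± 0.0712.

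**Figure D1:**
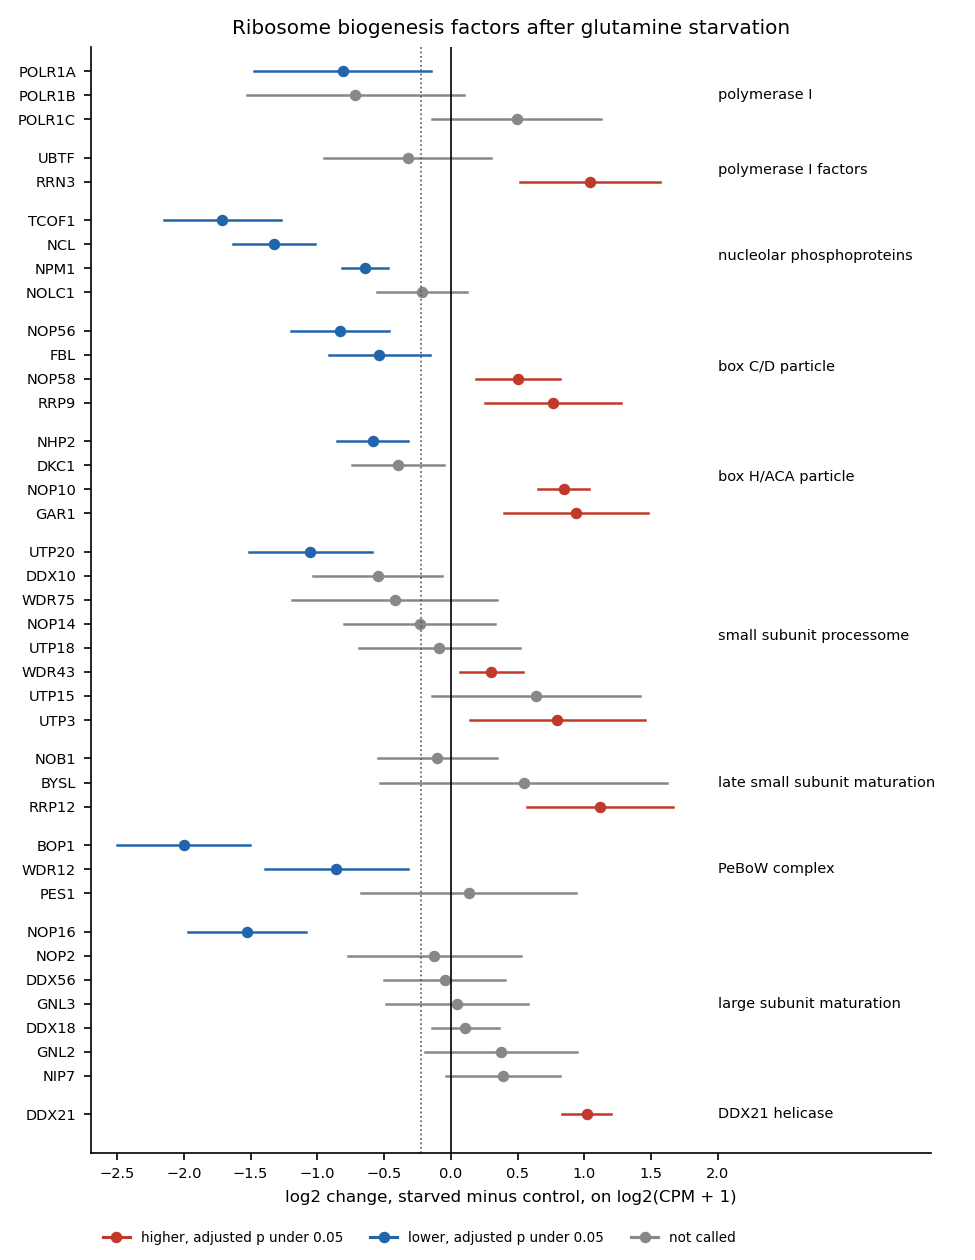
Fitted log2 change (x axis, starved minus control, on log2(CPM + 1)) of each tested nucleolar factor, with its 95% interval, grouped by role; colours mark genes called higher, lower or not called at a limma adjusted p under 0.05, and the dotted line is the median of all tested genes at -0.22. Changes run from -2.0 for BOP1 to 1.12 for RRP12, and the box C/D and box H/ACA groups each hold genes on both sides of 0.

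**Figure D2:**
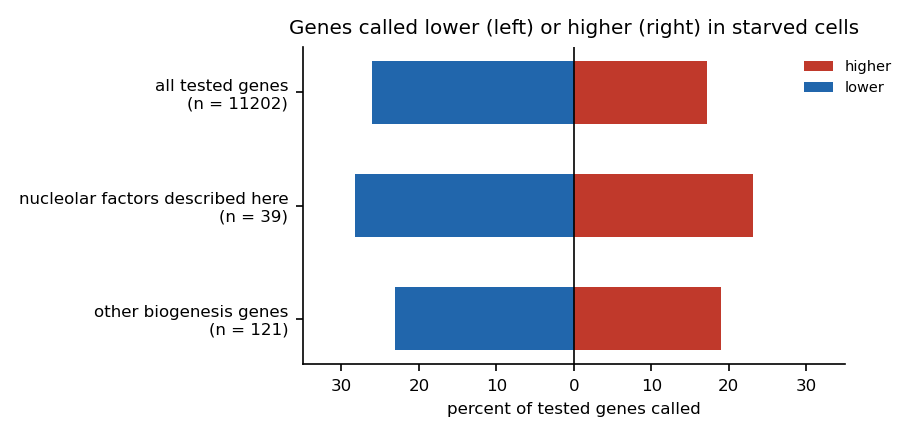
Percent of tested genes called lower (left) and higher (right) in starved cells among all tested genes, the 39 nucleolar factors and 121 other ribosome biogenesis genes. The factors, at 28.2% lower and 23.1% higher, lie near the 26.1% and 17.2% of all genes.

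The genes' promoters were searched for CACGTG, the E-box that MYC binds, which reads the same on both strands. RefSeq promoters (GRCh38.p14, 250 bases before to 50 after a start) were given for 34 of the 41 genes, and 15 of them (44.1%) hold it, beside 13.4% of 7833 tested genes and 8.77% of all 27305 genes in that table. It is present in 5 of 7 genes that rose, 2 of 9 that fell and 7 of 17 that were not called. No promoter was given for NOP58 and RRP12, which rose, or for TCOF1 and BOP1, which fell. The matching shares among all tested genes that rose or fell are not given here, so nothing about direction is read from these counts. A member with several listed promoters was counted when any of them held it. DDX21 and GAR1, which rose, and GNL3, not called, each have a further listed promoter without it. The DDX21 stretch below is from its promoter that holds it. The following stretches run from 80 bases before to 20 bases after the start, 5′ to 3′, and are shown because they carry the E-box (capitals) near the start in 4 genes that rose and 2 that fell.
NOP10, chr15:34343117-34343216, minus strand: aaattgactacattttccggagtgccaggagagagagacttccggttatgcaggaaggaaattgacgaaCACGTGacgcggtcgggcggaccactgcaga
RRP9, chr3:51941885-51941984, minus strand: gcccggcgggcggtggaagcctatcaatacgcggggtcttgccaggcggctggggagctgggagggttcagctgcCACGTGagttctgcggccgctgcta
DDX21, chr10:68956567-68956666, plus strand: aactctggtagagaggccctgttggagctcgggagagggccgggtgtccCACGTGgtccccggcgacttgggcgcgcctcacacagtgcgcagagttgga
WDR43, chr2:28894587-28894686, plus strand: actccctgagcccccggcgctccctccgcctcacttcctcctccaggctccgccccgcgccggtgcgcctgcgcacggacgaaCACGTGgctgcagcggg
FBL, chr19:39846360-39846459, minus strand: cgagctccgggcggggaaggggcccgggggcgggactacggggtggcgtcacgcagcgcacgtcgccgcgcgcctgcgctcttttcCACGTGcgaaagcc
UTP20, chr12:101280025-101280124, plus strand: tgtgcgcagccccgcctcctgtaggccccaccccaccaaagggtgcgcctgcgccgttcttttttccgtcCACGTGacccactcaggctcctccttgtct
The E-box begins 11 bases before the start in NOP10, 5 in RRP9, 31 in DDX21 and 10 in UTP20, and at transcript base 4 in WDR43 and 7 in FBL. A match to these letters is a description of the promoter and was not tested against the changes. MYC itself (ENSG00000136997.14) had 70.5, 129, 102, 157 and 109 CPM in control and 315, 317, 311, 317 and 303 CPM in starved libraries. MYC rose 2.76-fold with no overlap (limma adjusted p = 3.1e-07 for a log2 change of 1.5, SE 0.17).

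Among RNA polymerase I subunits 1 of 3 was called, beside 43.3% of all tested genes. POLR1A (ENSG00000068654.15), the largest subunit, had 35.3, 40.0, 57.2, 54.1 and 58.1 CPM in control replicates 1 to 5 and 43.8, 29.8, 27.9, 24.4 and 15.9 CPM in starved replicates 1 to 5. The groups overlapped in starved replicate 1 and control replicates 1 and 2. It fell 1.73-fold (limma adjusted p = 0.0456 for a log2 change of -0.81, SE 0.32). That call is fragile: leaving out any 1 of control replicates 2 to 5 or starved replicates 2 to 5 gave limma adjusted p from 0.0511 to 0.105, and edgeR gave 0.132. POLR1B, the second largest subunit, averaged 31.4 ± 10.3 CPM in control and 18.9 ± 6.58 CPM in starved libraries (log2 change -0.72 with a 95% interval of -1.53 to 0.10). POLR1C, which polymerases I and III share, stood at 37.1 ± 12.8 and 52.97 ± 17.3 CPM (log2 change 0.49 with a 95% interval of -0.14 to 1.13), and was called higher with edgeR (adjusted p = 0.0233). POLR1C overlaps YIPF3 and XPO5 on the opposite strand in GENCODE 29, and no source used here states whether counting used strand.

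Of the 2 initiation factors of polymerase I, RRN3 rose and UBTF was not called. RRN3 (ENSG00000085721.12), which brings the polymerase to the ribosomal RNA promoter, had 91.7, 48.5, 64.6, 29.5 and 60.7 CPM in the control and 96.1, 129, 88.3, 128 and 143 CPM in the starved libraries. Its highest control library, replicate 1, exceeded only starved replicate 3. RRN3 rose 1.98-fold (limma adjusted p = 0.00214 for a log2 change of 1.04, SE 0.25). RRN3 has close copies: RRN3P1, listed as a pseudogene, went from 3.597 ± 4.38 to 36.9 ± 24.0 CPM (limma adjusted p = 0.000796), so the level of RRN3 is uncertain. PDXDC1, which overlaps RRN3 on the opposite strand, fell from 100.6 ± 17.6 to 65.3 ± 15.2 CPM (limma adjusted p = 0.0211). UBTF, the DNA-binding factor that keeps ribosomal RNA genes open, was not called, at 71.8 ± 27.9 in control and 53.5 ± 11.9 CPM in starved libraries (log2 change -0.32 with a 95% interval of -0.95 to 0.30). It was called lower without control replicate 2 (limma adjusted p = 0.0494).

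Transcripts of abundant nucleolar phosphoproteins fell in 3 of 4 cases and rose in 0, where 26.1% of all tested genes fell and 17.2% rose. With only 4 genes, no trend of this role is read from the count. TCOF1 (ENSG00000070814.17), treacle, which holds polymerase I and its factors at the ribosomal RNA genes and is mutated in Treacher Collins syndrome, stood at 183, 175, 119, 167 and 162 CPM in control and 57.3, 44.6, 46.5, 67.1 and 31.8 CPM in starved libraries. Every starved library lay under every control library. The fall was 3.26-fold (limma adjusted p = 1.1e-06 for a log2 change of -1.71, SE 0.21). NCL (ENSG00000115053.15), nucleolin, which binds the nascent precursor, held 797, 518, 681, 851 and 569 CPM in the control and 288, 312, 205, 317 and 234 CPM in the starved libraries. Here too the groups did not overlap, with 518 CPM as the lowest control and 317 CPM as the highest starved value. NCL fell 2.52-fold (limma adjusted p = 2.4e-07 for a log2 change of -1.33, SE 0.15). NPM1, nucleophosmin, a chaperone of the granular part of the nucleolus, fell from 1338 ± 83.6 to 857 ± 45.3 CPM (limma adjusted p = 2.0e-06), again with no overlap. GENCODE 29 names 45 NPM1 pseudogenes, of which 31 have a row with 119 counts in all against 3345 for NPM1, so a part of its counts may be misassigned. NOLC1, a chaperone of small nucleolar particles that resembles treacle in its repeats, was not called: it had 183, 194, 261, 236 and 253 CPM in control and 196, 193, 144, 274 and 175 CPM in starved libraries. The starved libraries spread past both ends of the control range (log2 change -0.21 with a 95% interval of -0.55 to 0.12).

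Of the transcripts of the 4 box C/D proteins, 2 rose and 2 fell, where 17.2% of all tested genes rose and 26.1% fell. With only 4 genes, nothing about the particle is read from the count. NOP56 (ENSG00000101361.14), a core protein of the particle, had 148, 221, 209, 153 and 205 CPM in control and 77.5, 99.2, 93.0, 134 and 122 CPM in starved libraries. The lowest control library, at 148 CPM, was above the highest starved library, at 134 CPM. NOP56 fell 1.78-fold (limma adjusted p = 0.000716 for a log2 change of -0.83, SE 0.18). NOP58 (ENSG00000055044.10), its paralog and partner in every box C/D particle, stood at 226, 221, 194, 271 and 162 CPM in control and 241, 303, 260.3, 354 and 366 CPM in starved libraries. Only control replicate 4 reached into the starved range. NOP58 rose 1.42-fold (limma adjusted p = 0.00998 for a log2 change of 0.51, SE 0.15). RRP9 (ENSG00000114767.6), which binds the U3 small nucleolar RNA needed to make the small subunit, had 56.4, 31.6, 42.3, 39.4 and 53.1 CPM in the control and 80.9, 99.2, 83.7, 54.9 and 63.7 CPM in the starved libraries. Starved replicate 4 fell below the highest control library. RRP9 rose 1.72-fold (limma adjusted p = 0.0157 for a log2 change of 0.77, SE 0.25). FBL, fibrillarin, the methyltransferase of the particle, fell from 135 ± 22.9 to 92.8 ± 16.2 CPM (limma adjusted p = 0.0218 for a log2 change of -0.53, SE 0.18); the call was lost without any 1 of control replicate 3 and starved replicates 1 and 3 (limma adjusted p 0.0569 to 0.0609), and was not made by DESeq2 (adjusted p = 0.0789).

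**Figure D3:**
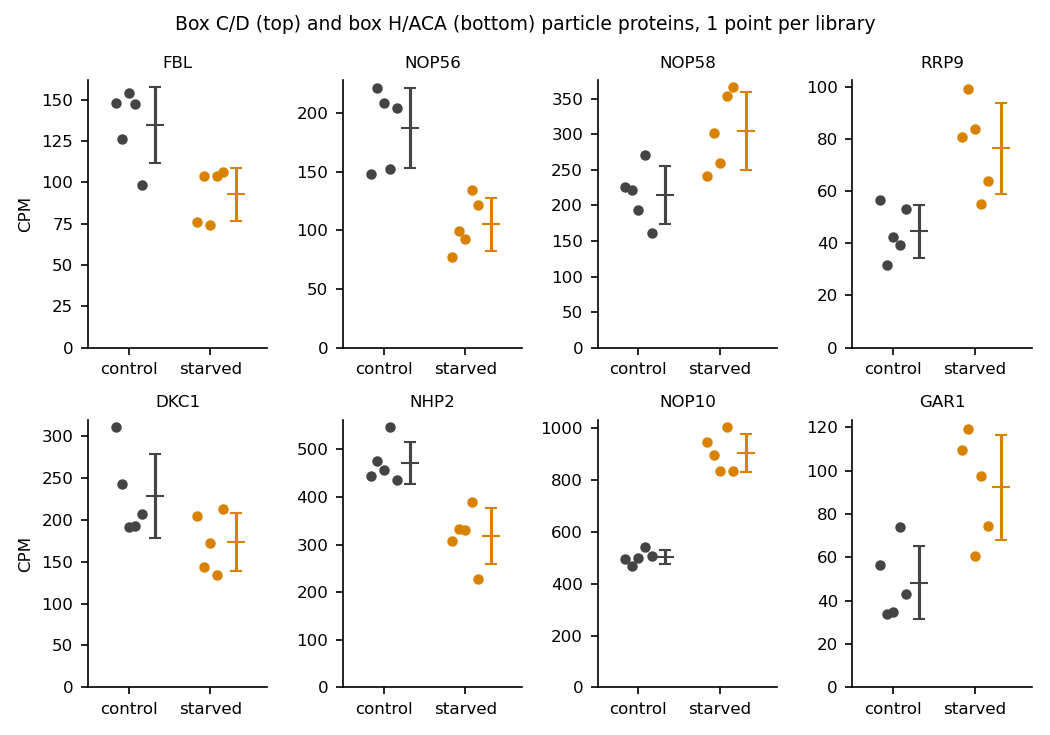
CPM (y axis, from 0) of the box C/D proteins FBL, NOP56, NOP58 and RRP9 and the box H/ACA proteins DKC1, NHP2, NOP10 and GAR1 in the 5 control and 5 starved libraries; points are libraries and the bars beside them are mean ± SD. NOP56 and NHP2 are lower in starved libraries, and NOP58, RRP9, NOP10 and GAR1 are higher.

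Of the 4 box H/ACA protein transcripts, 2 rose and 1 fell, where 17.2% of all tested genes rose and 26.1% fell. This count too is of only 4 genes. NOP10 (ENSG00000182117.5), the smallest protein of the particle, had 494, 468, 499.6, 541 and 508 CPM in control and 946, 898, 837, 1006 and 833 CPM in starved libraries. The groups were far apart, with 541 CPM as the highest control and 833 CPM as the lowest starved value. NOP10 rose 1.80-fold (limma adjusted p = 1.9e-07 for a log2 change of 0.84, SE 0.09). GAR1 (ENSG00000109534.16), which joins the mature particle, stood at 56.4, 33.7, 34.8, 73.8 and 43.0 CPM in control and 109.6, 119, 60.4, 97.6 and 74.3 CPM in starved libraries. Starved replicate 3 was below control replicate 4. GAR1 rose 1.91-fold (limma adjusted p = 0.00594 for a log2 change of 0.94, SE 0.26). NHP2 (ENSG00000145912.8), which binds the guide RNA and its partners, held 444, 476, 457, 546 and 435 CPM in the control and 307, 332, 330.0, 390.2 and 228 CPM in the starved libraries. It did not overlap between groups and fell 1.49-fold (limma adjusted p = 0.000886 for a log2 change of -0.59, SE 0.13). RMND5B, on the opposite strand, had 57 counts against 1183 for NHP2. DKC1, dyskerin, the pseudouridine synthase, whose gene and those of NHP2 and NOP10 are mutated in dyskeratosis congenita, averaged 229 ± 50.2 CPM in control and 173 ± 34.9 CPM in starved libraries (log2 change -0.40 with a 95% interval of -0.74 to -0.05, limma adjusted p = 0.0565). It was called lower without any 1 of control replicates 3 and 4 and starved replicates 1 and 5 (limma adjusted p 0.0312 to 0.0476), and also with quantile normalization, a pseudocount of 5 or a filter at 20 CPM (0.0389 to 0.0483).

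The small subunit processome, the assembly that forms on the nascent precursor, had 8 tested members here, of which 2 rose and 1 fell. Of all tested genes 17.2% rose and 26.1% fell. UTP20 (ENSG00000120800.4), a long scaffold protein, had 106, 90.6, 82.0, 98.4 and 111 CPM in control and 62.4, 39.7, 32.5, 54.9 and 47.8 CPM in starved libraries. All starved libraries were under all control libraries. UTP20 fell 2.06-fold (limma adjusted p = 0.000627 for a log2 change of -1.05, SE 0.22). WDR43 (ENSG00000163811.11), of the UTP-A complex that links transcription to processing, stood at 289, 234, 229, 280.5 and 235 CPM in the control and 300.04, 312, 311, 311 and 324 CPM in the starved libraries. The starved libraries lay close together, just above the highest control library at 289 CPM. The rise was 1.23-fold (limma adjusted p = 0.0374 for a log2 change of 0.30, SE 0.12). Its call was lost without any 1 of control replicates 2, 3 and 5 and starved replicates 2 to 5 (limma adjusted p 0.0522 to 0.0916). UTP3 (ENSG00000132467.3), known as Sas10 in yeast, had 42.3, 23.2, 34.8, 24.6 and 20.2 CPM in control and 53.9, 29.8, 46.5, 67.1 and 58.4 CPM in starved libraries. Starved replicate 2 lay within the control range. UTP3 rose 1.76-fold (limma adjusted p = 0.0465 for a log2 change of 0.80, SE 0.32), a call lost without any 1 of control replicates 2, 4 and 5 and starved replicates 1, 3, 4 and 5 (limma adjusted p 0.0629 to 0.106).

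The other 5 processome genes were not called. UTP15 and WDR75, also of the UTP-A complex, had 26.4 ± 11.1 and 44.7 ± 19.8 CPM in control, and 40.4 ± 14.1 and 33.9 ± 14.3 CPM in starved libraries. UTP18, of the UTP-B complex that PWP2 belongs to, averaged 50.1 ± 11.2 CPM in control and 48.9 ± 15.7 CPM in starved libraries. NOP14, whose product joins the processome with the early small subunit factors, stood at 69.5 ± 20.5 and 59.7 ± 22.1 CPM. Its antisense gene NOP14-AS1 rose from 4.73 ± 3.74 to 42.8 ± 7.93 CPM (limma adjusted p = 0.000170). Where the 2 genes overlap, their reads could be told apart only by strand. DDX10, an RNA helicase, had 77 ± 12.2 and 53.3 ± 14.5 CPM (log2 change -0.55 with a 95% interval of -1.03 to -0.06). It was called lower without any 1 of control replicate 3 and starved replicates 1 and 4 (limma adjusted p 0.0384 to 0.0491).

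Of the factors that mature the small subunit late, 1 of 3 tested rose, beside 17.2% of all tested genes. RRP12 (ENSG00000052749.13), needed for export of the precursors of both subunits in yeast, had 42.3, 46.4, 37.3, 39.4 and 43.0 CPM in control and 109.6, 114, 116, 104 and 42.5 CPM in starved libraries. In 4 of 5 starved libraries it was above 100 CPM, and starved replicate 5 lay at the control level. RRP12 rose 2.33-fold (limma adjusted p = 0.00167 for a log2 change of 1.12, SE 0.26). BYSL, bystin, had 7.05, 16.9, 9.94, 29.5 and 12.6 CPM in control and 11.8, 14.9, 13.9, 36.6 and 37.2 CPM in starved libraries. Those ranges overlapped widely and rest on 24 and 26 counts per group (log2 change 0.55 with a 95% interval of -0.53 to 1.62). NOB1, the nuclease that makes the 3' end of 18S ribosomal RNA, had 75.5 ± 14.7 and 70.2 ± 12.3 CPM (log2 change -0.10 with a 95% interval of -0.54 to 0.34). LTV1, which leaves the small subunit late in its maturation, was under the limit for testing, with 8 counts over control and 6 over starved libraries. Its ratio of pooled CPM was 0.890 (exact binomial 95% interval 0.255 to 2.93, for counting error only). The genes AL049844.1 and AL049844.3 overlap LTV1 on the same strand in GENCODE 29 and had 87 and 110 counts, so its level is uncertain.

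Of the 3 transcripts for the PeBoW complex, which is needed to process the precursor of the large subunit, 2 fell and 1 was not called. Of all tested genes 26.1% fell, and nothing about the complex is read from a count of 3. BOP1 (ENSG00000261236.5) had 84.6, 145, 137, 108 and 124 CPM in control and 32.03, 39.7, 23.2, 24.4 and 26.5 CPM in starved libraries. Every starved library lay far under every control library. It fell 4.11-fold (limma adjusted p = 7.3e-07 for a log2 change of -2.0, SE 0.24), more than any other of the factors. WDR12 fell from 104 ± 34.7 to 57.0 ± 19.1 CPM (limma adjusted p = 0.0105 for a log2 change of -0.86, SE 0.26), with starved replicate 2 above the lowest control library. PES1 (ENSG00000100029.17), pescadillo, stood at 21.2, 61.1, 29.8, 24.6 and 27.8 CPM in the control and 48.9, 14.9, 51.1, 42.7 and 26.5 CPM in the starved libraries. Control replicate 2 was the highest of all 10 libraries, and the groups overlapped throughout (log2 change 0.13 with a 95% interval of -0.67 to 0.94).

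Of the 43 large subunit genes described further below 55.8% were called, beside 43.3% of all tested genes. Of the 7 other large subunit factors tested here 6 were not called, and no trend is read from so few. NOP16 (ENSG00000048162.19), a nucleolar protein known as a MYC target, was the exception, with 226, 217, 209, 187 and 235 CPM in control and 77.5, 64.5, 79.0, 42.7 and 127 CPM in starved libraries. Starved replicate 5, the highest of its group, was still under the lowest control library. NOP16 fell 2.74-fold (limma adjusted p = 5.5e-06 for a log2 change of -1.53, SE 0.21). HIGD2A overlaps NOP16 on the opposite strand, and went from 136 ± 28.1 to 91.9 ± 39.6 CPM (limma adjusted p = 0.0429). NIP7, which acts in large subunit maturation in yeast, had 98.8, 86.4, 102, 138 and 73.3 CPM in control and 167, 99.2, 93.0, 140.2 and 159 CPM in starved libraries. It was not called by limma (log2 change 0.39 with a 95% interval of -0.04 to 0.82), but was called higher by edgeR (adjusted p = 0.00244) and DESeq2 (adjusted p = 0.0432). NOP2, a ribosomal RNA cytosine methyltransferase, stood at 37.0 ± 7.64 and 34.5 ± 10.8 CPM. DDX18, an RNA helicase, had 347 ± 8.85 and 379.6 ± 66.9 CPM, a log2 change of 0.11 with a 95% interval of -0.14 to 0.36, the narrowest interval among the genes not called. DDX56, also a helicase, stood at 99.5 ± 13.3 and 100.3 ± 32.1 CPM. The GTPase genes GNL2 and GNL3, the second known as nucleostemin, had 50.2 ± 16.2 and 63.4 ± 20.6 CPM in control and 66.0 ± 21.4 and 63.4 ± 11.7 CPM in starved libraries. PBRM1, on the opposite strand of GNL3, rose from 78.5 ± 14.2 to 114 ± 16.2 CPM (limma adjusted p = 0.0244). RRS1, which helps to bring in the 5S ribosomal RNA particle in yeast, had 10 counts over the control and 4 over the starved libraries and was not tested (ratio of pooled CPM 0.475, exact binomial 95% interval 0.109 to 1.65).

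DDX21 (ENSG00000165732.12), an RNA helicase that binds both the polymerase I transcript and small nucleolar RNAs, had 409, 426, 408, 423 and 419.6 CPM in control and 836, 843, 823, 908 and 817 CPM in starved libraries. Its libraries were the tightest relative to their mean of all the factors named here in control cells, and the groups lay far apart. DDX21 rose 2.03-fold (limma adjusted p = 5.8e-09 for a log2 change of 1.02, SE 0.09), the smallest p of the 39.

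**Figure D4:**
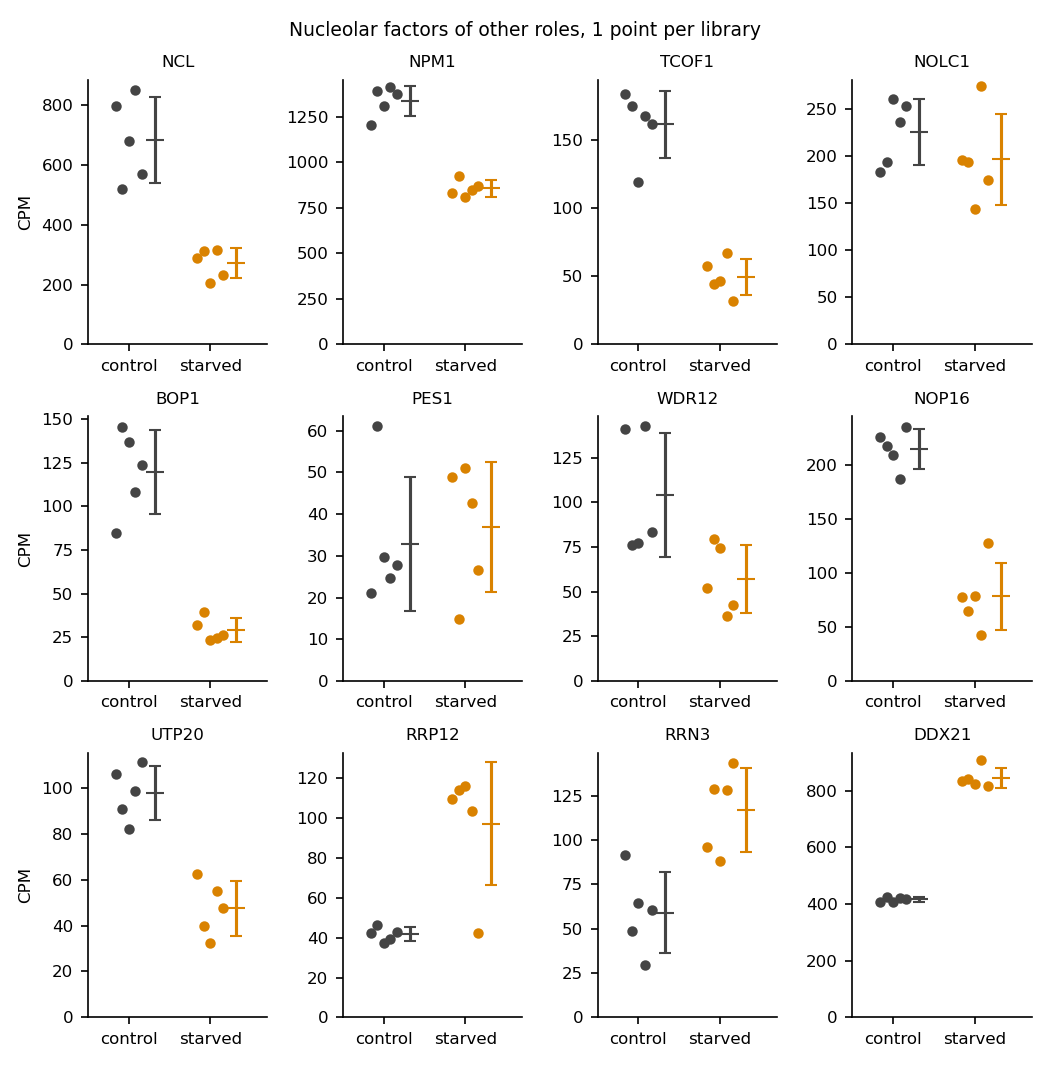
CPM (y axis, from 0) of 12 further nucleolar factors in the 5 control and 5 starved libraries, with points for libraries and bars for mean ± SD. NCL, NPM1, TCOF1, BOP1, NOP16 and UTP20 show no overlap and lie lower in starved libraries, DDX21 lies higher with no overlap, and RRP12 is higher in 4 of 5 starved libraries.

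Partners in one complex were compared through the log2 ratio of their CPM + 1 within each library, in which library scaling cancels. Of 23 testable pairs, 12 ratios changed at an adjusted p under 0.05 (two-sided exact permutation over libraries, Benjamini-Hochberg over the 23 pairs; the smallest p that 5 against 5 libraries allow is 0.00794), and in 7 the groups did not overlap. The 12 pairs (52.2%) had an unadjusted exact permutation p of at most 0.0238, as did 36.9% of all 62736801 pairs of tested genes. Ratios without overlap made up 30.4% of the partner pairs, beside 26.7% of all pairs. In 4 pairs (17.4%, beside 8.98% of all pairs) 1 partner had risen and the other had fallen. Unequal changes were also common among all pairs, the partner pairs overlap in their genes, and nothing particular to partners is read from these counts. The log2 ratio of NOP56 to NOP58 went from -0.20 ± 0.494 to -1.53 ± 0.0972 (exact permutation p = 0.00794, 0.0261 adjusted), a change in the balance of these paralogs by a factor of 2.53. FBL to NOP58 went from -0.66 ± 0.212 to -1.70 ± 0.111 (adjusted exact permutation p = 0.0261), and FBL to NOP56 from -0.47 ± 0.459 to -0.17 ± 0.186 (adjusted exact permutation p = 0.304). In the H/ACA particle, NHP2 to NOP10 went from -0.09 ± 0.109 to -1.52 ± 0.220 and NHP2 to GAR1 from 3.32 ± 0.411 to 1.80 ± 0.413 (both adjusted exact permutation p = 0.0261). DKC1 to NOP10 went from -1.15 ± 0.340 to -2.40 ± 0.368 (adjusted exact permutation p = 0.0261). For NOP10 to GAR1 the change was -0.09 and for DKC1 to NHP2 0.19 (adjusted exact permutation p = 0.705 and 0.608).

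Outside these particles, the ratio that moved furthest was BOP1 to PES1, from 1.91 ± 0.385 to -0.23 ± 0.972 on the log2 scale (adjusted exact permutation p = 0.0332). Starved replicate 2 lay within the control range of that ratio. NOLC1 to TCOF1 went from 0.48 ± 0.442 to 1.98 ± 0.315 with no overlap (adjusted exact permutation p = 0.0261), POLR1A to POLR1C from 0.42 ± 0.457 to -0.88 ± 0.508 (adjusted exact permutation p = 0.0261) and UBTF to RRN3 from 0.25 ± 0.932 to -1.12 ± 0.383 (adjusted exact permutation p = 0.0332). POLR1A to POLR1B changed by -0.09 (adjusted exact permutation p = 0.857). NCL fell more than NPM1, their ratio going from -0.99 ± 0.350 to -1.68 ± 0.246 (adjusted exact permutation p = 0.0332). Leaving out single libraries, 7 of the 12 calls held each time, those of NOP56 and FBL to NOP58, NHP2 to GAR1 and NOP10, DKC1 to NOP10, NOLC1 to TCOF1 and POLR1A to POLR1C. BOP1 to PES1 was lost without control replicate 3 or control replicate 5 (adjusted exact permutation p = 0.0548 each). NCL to NPM1 was lost without any 1 of starved replicates 1, 2, 3 and 5, and UBTF to RRN3 without any 1 of control replicates 3 and 5 and starved replicates 2 to 5 (adjusted exact permutation p 0.0548 to 0.0761 for both). DKC1 to GAR1 was lost without any 1 of control replicates 1, 2, 3 and 5 and starved replicates 1 to 5 (0.0548 to 0.0842), and POLR1B to POLR1C without any 1 of control replicates 1, 2, 3 and 5 and starved replicates 1, 2, 4 and 5 (0.0562 to 0.0730). BOP1 to WDR12, at an adjusted exact permutation p of 0.0562, was called without control replicate 1 (0.0228).

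**Figure D5:**
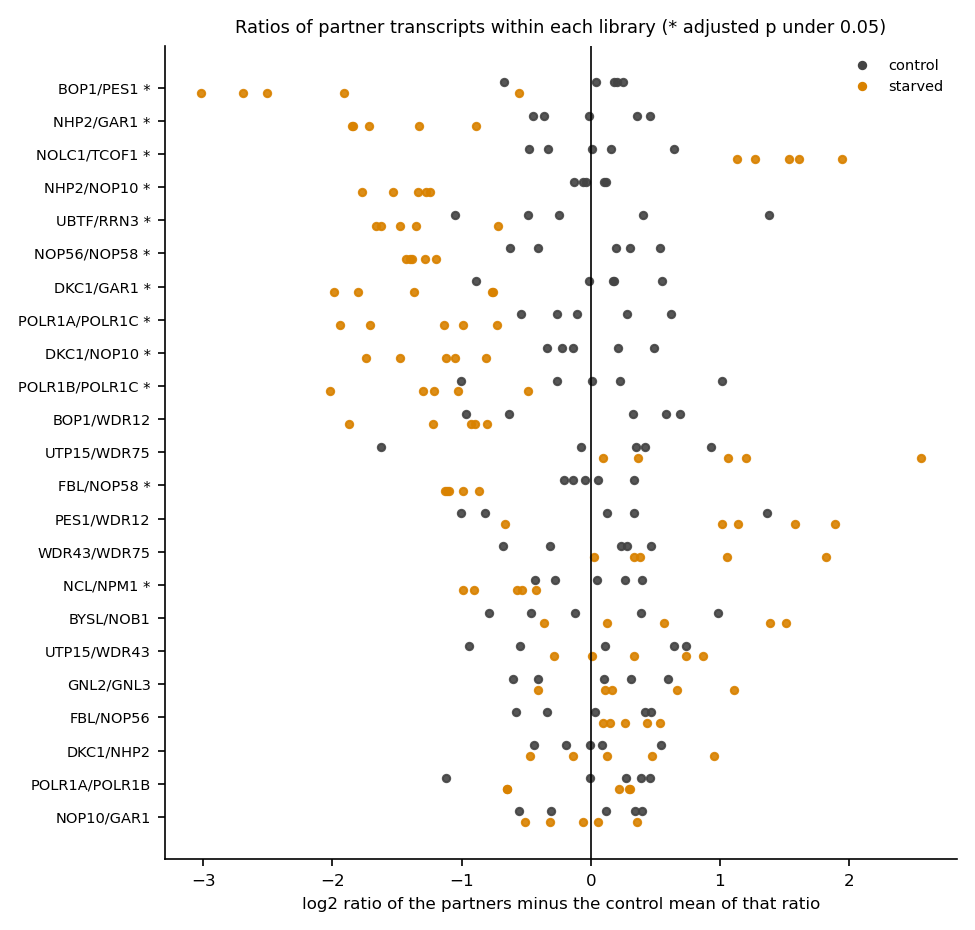
Log2 ratio of 2 partner transcripts in each library, minus the control mean of that ratio (x axis), for 23 pairs ordered by the size of the change; points are control and starved libraries and an asterisk marks an adjusted exact permutation p under 0.05. Starved libraries of NHP2/NOP10, NOP56/NOP58 and FBL/NOP58 lie wholly to the left of control libraries, and those of NOLC1/TCOF1 to the right.

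Several of these genes also carry small nucleolar RNAs in their introns. By the GENCODE 29 annotation 7 of 41 (17.1%) hold at least 1, 24 small nucleolar RNA genes in all, beside 2.17% of 9957 tested protein-coding genes. Of the 7 hosts, NOP58 and WDR43 rose, NCL and NOP56 fell, and DKC1, GNL3 and POLR1C were not called. These hosts are few, and of all tested genes 17.2% rose and 26.1% fell. The transcripts of the hosts were measured near their 3' ends, and the small nucleolar RNAs themselves were not analysed here.

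Other genes of the pathway, listed by role, also went both ways. Of 129 listed, 124 are in the table and 121 were tested; 23 rose and 28 fell, 42.1% in all beside 43.3% of all tested genes, with a median log2 change of 0.04. With edgeR 36 rose and 26 fell, with quantile or median-of-ratios scaling 29 rose and 22 fell, and with DESeq2 25 rose and 20 fell. Among large subunit factors 13 of 43 rose and 11 fell (30.2% and 25.6%, beside 17.2% and 26.1% of all tested genes). With edgeR 17 of them rose and 9 fell. NIFK, a nucleolar partner of Ki-67, rose from 100.0 ± 13.7 to 429 ± 78.3 CPM (limma adjusted p = 2.0e-10), SBDS, which helps to release a blocking factor from the new large subunit, from 172 ± 20.9 to 574 ± 74.2 CPM, and ZNF622, which acts on the large subunit in the cytoplasm, from 37.3 ± 7.95 to 142 ± 20.8 CPM. The helicase genes DDX54 and DDX55 fell, DDX54 from 134 ± 27.6 to 31.1 ± 16.2 CPM and DDX55 from 113 ± 14.0 to 58.6 ± 22.2 CPM, as did RRP1B from 65.3 ± 25.1 to 17.2 ± 8.21 CPM. For SBDS a near-identical pseudogene is known, so its level is uncertain.

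Among genes of ribosomal RNA nucleases and the exosome 10 of 22 fell and 2 rose (45.5% and 9.09%, beside 26.1% and 17.2% of all tested genes). POP5, a protein of RNase P and RNase MRP, fell from 138 ± 11.1 to 31.6 ± 12.02 CPM, and the exosome subunits EXOSC9 and EXOSC4 from 49.3 ± 15.7 to 18.7 ± 5.97 CPM and from 104 ± 18.6 to 30.7 ± 25.2 CPM. DIS3, a nuclease of the exosome, rose from 34.9 ± 7.07 to 123 ± 19.4 CPM (limma adjusted p = 9.6e-07), and MPHOSPH6, an exosome cofactor, from 103 ± 17.2 to 152 ± 8.39 CPM. Of 10 genes for small nucleolar particle assembly 2 fell, the ATPase pair RUVBL1 (from 61.9 ± 11.4 to 12.7 ± 11.4 CPM) and RUVBL2 (from 138 ± 33.7 to 30.7 ± 10.4 CPM), and ZNHIT6, a box C/D assembly factor, rose from 23.5 ± 5.70 to 49.2 ± 16.6 CPM. Of 27 further processome genes 2 rose and 2 fell (7.41% each, beside 17.2% and 26.1% of all tested genes), against 7 and 3 with edgeR. NGDN went from 33.7 ± 8.53 to 78.8 ± 21.1 CPM and NOC4L from 21.7 ± 9.59 to 43.9 ± 14.1 CPM, whereas TBL3 went from 69.9 ± 19.8 to 16.1 ± 10.7 CPM and IMP3 from 35.9 ± 14.2 to 15.7 ± 4.15 CPM. Late small subunit genes rose in 3 of 10 cases (PNO1, WBSCR22 and RIOK2) and fell in 2 (5 and 2 with edgeR), TSR1, an assembly factor (from 59.6 ± 7.87 to 20.8 ± 10.3 CPM), and TSR3, which modifies 18S ribosomal RNA (from 82.2 ± 13.1 to 28.4 ± 18.4 CPM). PNO1, which holds the immature end of 18S ribosomal RNA, went from 73.5 ± 19.5 to 130.0 ± 15.4 CPM, WBSCR22, an 18S methyltransferase, from 130.3 ± 21.5 to 181 ± 36.6 CPM and the kinase gene RIOK2 from 22.4 ± 2.50 to 42.5 ± 13.0 CPM. Among 9 further polymerase I genes 2 rose and 1 fell (4 and 1 with edgeR): TAF1A and TAF1D, of the promoter selectivity factor, rose, from 18.9 ± 5.97 to 53.2 ± 18.9 CPM and from 159 ± 42.0 to 235 ± 39.2 CPM, and the subunit gene TWISTNB fell from 152 ± 16.04 to 108 ± 17.9 CPM. Calls lost when 1 library was left out were IMP3 without any of control replicates 2, 3 and 5 or starved replicate 3 (limma adjusted p 0.0537 to 0.111); NOC4L without any of control replicates 1 and 3 or starved replicates 3, 4 and 5 (limma adjusted p 0.0534 to 0.0903); RIOK2 without any of control replicates 1, 2, 3, 4 and 5 or starved replicates 1, 3 and 4 (limma adjusted p 0.0530 to 0.107); WBSCR22 without any of control replicates 1 and 2 or starved replicates 1 and 3 (limma adjusted p 0.0567 to 0.104); and ZNHIT6 without any of starved replicates 1 and 2 (limma adjusted p 0.0615 to 0.0619). Among all libraries, TWISTNB was not called with DESeq2 (adjusted p = 0.0751), nor NOC4L (0.0579), and EXOSC4 was not called by limma with robust moderation (adjusted p = 0.0752). IMP3 was not called after quantile normalization, nor with scaling by TMM or by median ratios (limma adjusted p 0.0508 to 0.103). Without the filter on low values TWISTNB, IMP3, RIOK2 and WBSCR22 were not called (limma adjusted p 0.0682 to 0.127). With thinned counts 8 of the 26 genes named here were not called, namely these 4, TAF1D, EXOSC9, MPHOSPH6 and ZNHIT6 (limma adjusted p 0.0599 to 0.228).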

How the data were processed

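AsPC-1 libraries were made from total RNA with a 3' end kit (QIAseq UPX 3' Transcriptome), per the labels' protocols. The authors deposited 1 table of CPM for 36498 genes and 10 libraries, each library summing to 1000000. Per the submitters' processing notes reads were placed on hg19; for the aligner, molecular identifiers and strand, nothing is given in the sources used here. In each deposited library every value above 0 is a whole multiple of the smallest step (100% of 141466 values, relative tolerance 1e-06), which gave the count behind each CPM value. All other values were computed from this table.

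Two-sided tests used limma-trend 3.58.1 in R 4.3.3, applied to log2(CPM + 1) of genes whose mean reached 5 CPM, with Benjamini-Hochberg adjustment over all 11202 tested genes. A fold change is a ratio of mean CPM; log2 changes on the log2(CPM + 1) scale understate changes of low genes. Recovered counts were tested with edgeR 4.0.16 (quasi-likelihood) and DESeq2 1.42.0 as alternatives. Only the limma and edgeR fits were also run on simulated counts. Ratios of partners were compared by exact permutation (Python 3.11.15, numpy 2.4.6), with the same measure taken over all pairs of tested genes as background. Other alternatives were pseudocounts of 0.5 and 5, no filter or one of 20 CPM, scaling by TMM, quantiles or median ratios, robust moderation, a replicate block, counts thinned to 141763 per library, and libraries left out.

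The genes, lists and pairs were chosen with earlier results of these data known. Values in every library are given for the 1 or 2 genes with the smallest p in each role, for every factor that rose and for the most unequal pairs. Of other pathway genes, up to 3 per role and direction with the smallest p were named. Intervals from counts (exact binomial, scipy 1.17.1) cover counting error only. Promoters are from RefSeq (GRCh38.p14) and neighbouring genes from GENCODE 29 by name, so no coordinate was carried between builds. Protein sequences were not used here.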

Additional observations from a re-analysis of the deposited data

Results flagged for a closer look

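In 132 groups of 5 libraries (66 genes, each in control and starved cells) 7 single libraries stood apart from the rest of their group by Dixon's criterion, and chance gives about 1 in 20. Among the nucleolar factors, POLR1B was high in control replicate 1 (49.4 CPM, the next library 29.8), POLR1C in control replicate 4 (59.0 CPM, next 35.8), PES1 in control replicate 2 (61.1 CPM, next 29.8) and DDX21 in starved replicate 4 (908 CPM, next 843). RRP12 was low in starved replicate 5, at 42.5 CPM where the next library had 103.7 CPM. Of the other genes, TAF1D was high in control replicate 1 (233 CPM, next 153) and EXOSC4 low in control replicate 2 (71.6 CPM, next 106).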

How the results depend on the processing

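Of 20 called factors 13 kept their call under all 23 alternatives and no called factor changed sign. NOP58, RRP9 and UTP20 lost theirs only with thinned counts, which left 5 factors higher. POLR1A lost its call under 16 of them, WDR43 under 12, UTP3 under 11 and FBL under 7. Thinning left 18 other biogenesis genes lower, edgeR called 36 of these higher, and without control replicates 1 and 2 together 15 were higher and 18 lower. The factors' median log2 change was 0.0138 with edgeR and -0.21 without those 2 libraries; the cause was not tested.

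Leaving out 1 library gave 1701 to 1888 genes higher and 2526 to 2855 lower among all genes, 7 to 9 and 9 to 12 among the factors, 18 to 24 and 19 to 29 among other biogenesis genes, a median of -0.19 to -0.09 and 8 to 12 changed pairs. Libraries with the same replicate number did not deviate together (r from -0.0158 to 0.0227), so the numbers were not used as pairs. With a replicate block 7 factors were higher and 11 lower. POLR1A, WDR43 and UTP3 were lost and DKC1, at a limma adjusted p of 0.0382, was gained. Of the other genes named here IMP3 and RIOK2 were lost. Over all other biogenesis genes 24 were then higher and 29 lower, against 23 and 28 without the block. With it 0 partner pairs were called, since 5 pairs of libraries allow no p under 0.0625.

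Signs turned only for values that were not called. The log2 change was 0.0753 with DESeq2, 0.12 with edgeR and 0.0536 with quantile normalization for UTP18, 0.11 with DESeq2, 0.12 with edgeR and 0.0406 with median-of-ratios scaling for DDX56, and 0.0021 with DESeq2, 0.0138 with edgeR, 0.10 with quantile normalization and 0.0096 without control replicates 1 and 2 for NOP2. NOB1 had 0.0070 with edgeR. Thinned counts gave 0.0840 for NOP14, -0.24 for BYSL and -0.11 for GNL3. Without single libraries the changes ran from -0.18 to 0.15 for UTP18, -0.20 to 0.0079 for NOB1, -0.0144 to 0.41 for PES1, -0.18 to 0.15 for DDX56 and -0.15 to 0.18 for GNL3, and the log2 ratio changes from -0.0027 to 0.35 for DKC1/NHP2, -0.23 to 0.011 for NOP10/GAR1 and -0.37 to 0.045 for POLR1A/POLR1B. LTV1 and RRS1, with 6 to 8 and 4 to 10 counts per group, lay under the filter of 5 CPM.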
